A study of Homo sapiens with 9 samples.

Results

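The genes described are 6 chemokine ligands (CXCL8, CXCL1, CXCL2, CXCL3, CXCL5 and CCL20) and 4 target genes of NF-kappaB that feed back on it or act with it (NFKBIA, TNFAIP3, RELB and BIRC3). They were taken by gene symbol from a table of 22587 genes, and all 10 were found. The table holds RNA-seq of HepG2 cells, an established human cell line derived from a liver tumor, with 3 libraries in each of 3 groups: cells in normal medium with glutamine (Gln added), cells after 12 h of Gln deprivation and cells after 24 h of Gln deprivation. All groups were grown in high glucose DMEM with serum, and no genetic change or other agent separates them. GlutaMAX, a dipeptide source of Gln, is listed as the treatment of the Gln added samples, whereas the treatment protocol and the methods place it in the medium of the deprived cells, so what the deprived cells received cannot be settled from these sources. Whether the 3 libraries of a group came from separate cultures is not given in the sources used here, and if they did not, the p-values below measure only the spread between these samples, which may be technical.

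NF-kappaB is a family of dimeric transcription factors that IkappaB proteins hold in the cytoplasm until the IKK kinases mark those inhibitors for destruction. Once in the nucleus it switches on genes for chemokines, small secreted proteins that draw in leukocytes, and also genes for its own inhibitors, which shut the response off again. Liver cells respond in this way to inflammatory cytokines and to tissue damage, with CXCL8 and its relatives attracting neutrophils and CCL20 attracting lymphocytes and dendritic cells that carry the receptor CCR6.

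The values are FPKM, which scale the fragments on a gene by its length and by library depth. Levels of different genes can thus be set side by side per length, but only as far as the lengths used are right. These were 8616 bases for TNFAIP3, 834 for CCL20 and 1559 for NFKBIA, against 6443, 1594 and 3394 exonic bases in GENCODE v44. Orders and ratios of level between genes depend on these lengths, while changes within a gene do not. The fragments behind each value were solved from the FPKM steps, and library totals ran from 29621270 to 36261546 fragments. Of the 10 members, 5 averaged 0.5 FPKM or more across the 9 libraries and were tested among 11880 such genes: CCL20, CXCL8, NFKBIA, TNFAIP3 and RELB. These 5 were also above 0.5 FPKM in every Gln added library. The other 5 (CXCL1, CXCL2, CXCL3, CXCL5 and BIRC3) fell under that mean and are given by their fragments. All 8 liver markers were well expressed, with ALB, the gene of serum albumin, at 3230 to 3910 FPKM, and their summed level was 7470 to 7570 FPKM with Gln added, 6550 to 6620 after 12 h and 6330 to 6660 after 24 h. Every deprived library was below every Gln added library in this sum, and its part in the changes of the members was not tested. Of 10 immune cell markers, PTPRC, CD3E, MS4A1 and FCGR3B have no row and CSF1R and ITGAM stayed at or under 0.0187 FPKM, while LYZ and CD68 were abundant. The summed level of the immune list was 771 to 791 FPKM with Gln added, 555 to 595 after 12 h and 762 to 809 after 24 h, nearly all of it from LYZ. In bulk RNA, a change in the number of cells that make a transcript and a change in the transcript per cell cannot be told apart.

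The 150 bases before the transcription start are shown for 7 members because these are the stretches where the best known NF-kappaB sites of chemokine and inhibitor genes lie, and because members that moved together and members that stayed near 0 can be compared there. Sequences come from RefSeq, build GRCh38.p14, and are written 5′ to 3′ along the strand of the gene. Capitals mark matches on either strand of a kappaB form (GGGNNNNNCC), of a kappaB core (GGAATTTCC) or of the AP-1 motif (TGANTCA), and where matches overlap the capitals run on. The stretches are chr4:73740419-73740568 on the plus strand for CXCL8, chr4:73869243-73869392 on the plus strand for CXCL1, chr4:74099196-74099345 on the minus strand for CXCL2 and chr4:74038690-74038839 on the minus strand for CXCL3. Those of the remaining genes are chr2:227813692-227813841 on the plus strand for CCL20, chr14:35404750-35404899 on the minus strand for NFKBIA and chr6:137867109-137867258 on the plus strand for TNFAIP3. The starts are those of RefSeq, whereas the gene bounds given below are those of GENCODE v44 and can differ. By those bounds the stretch of CCL20 lies inside the gene, and those of CXCL8, CXCL2, CXCL3 and TNFAIP3 run into it.
CXCL8: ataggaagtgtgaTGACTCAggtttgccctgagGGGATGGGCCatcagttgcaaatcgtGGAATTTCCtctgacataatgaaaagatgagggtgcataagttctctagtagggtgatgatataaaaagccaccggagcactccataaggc
CXCL1: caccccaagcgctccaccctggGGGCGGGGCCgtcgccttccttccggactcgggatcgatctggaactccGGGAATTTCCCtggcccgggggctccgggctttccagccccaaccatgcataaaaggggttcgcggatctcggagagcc
CXCL2: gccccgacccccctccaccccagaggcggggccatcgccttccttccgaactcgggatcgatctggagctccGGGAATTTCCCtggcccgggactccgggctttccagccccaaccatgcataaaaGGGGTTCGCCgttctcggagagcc
CXCL3: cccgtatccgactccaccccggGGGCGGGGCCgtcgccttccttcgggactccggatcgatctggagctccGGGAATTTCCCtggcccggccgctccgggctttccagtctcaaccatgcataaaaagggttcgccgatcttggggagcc
CCL20: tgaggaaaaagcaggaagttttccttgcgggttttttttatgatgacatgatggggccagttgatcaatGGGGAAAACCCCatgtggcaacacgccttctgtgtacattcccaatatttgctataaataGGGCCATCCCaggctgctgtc
NFKBIA: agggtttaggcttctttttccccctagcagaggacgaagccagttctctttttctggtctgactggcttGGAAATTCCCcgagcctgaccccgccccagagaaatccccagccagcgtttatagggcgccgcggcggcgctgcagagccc
TNFAIP3: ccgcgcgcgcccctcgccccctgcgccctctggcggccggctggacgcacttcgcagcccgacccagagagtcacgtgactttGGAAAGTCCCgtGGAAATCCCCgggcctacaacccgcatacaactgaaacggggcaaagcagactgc

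Motifs were counted in the RefSeq windows from 250 bases before to 50 bases after the start, which 9 of the 10 members have. The kappaB form GGGNNNNNCC was in all 9, but it is a loose pattern, found in 58.7% of all 35116 promoter windows. The core GGAATTTCC, taken from the CXCL8 stretch after the sequences were read, was in 0.461% of all windows and in 6 of the 9 members (CXCL8, CXCL1, CXCL2, CXCL3, CXCL5 and NFKBIA). The match in CXCL8 was fixed by that choice, and the stretches of CXCL1, CXCL2 and CXCL3 are alike, as given below. The count in members is therefore not a test against the share of all windows. Counted from the start, the core began at position -91 in CXCL8, -90 in CXCL5, -81 in NFKBIA (on the opposite strand), -78 in CXCL1 and CXCL3, and -77 in CXCL2. In the CXC ligands other than CXCL8 the core lies inside a match of the kappaB form. CCL20 and TNFAIP3 have kappaB forms with other letters and no match of this core. The AP-1 motif TGANTCA, in 7.71% of all windows, was in 1 member, CXCL8, at positions -137 to -131 from the start. TGATGNAA, a form bound by C/EBP and ATF dimers, was in 3.62% of all windows and in no member. TATAAA, searched on the strand of the gene only and in 7.33% of all windows, was in CXCL8 and CCL20. A match is a run of letters, not evidence of binding.

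**Figure D1:**
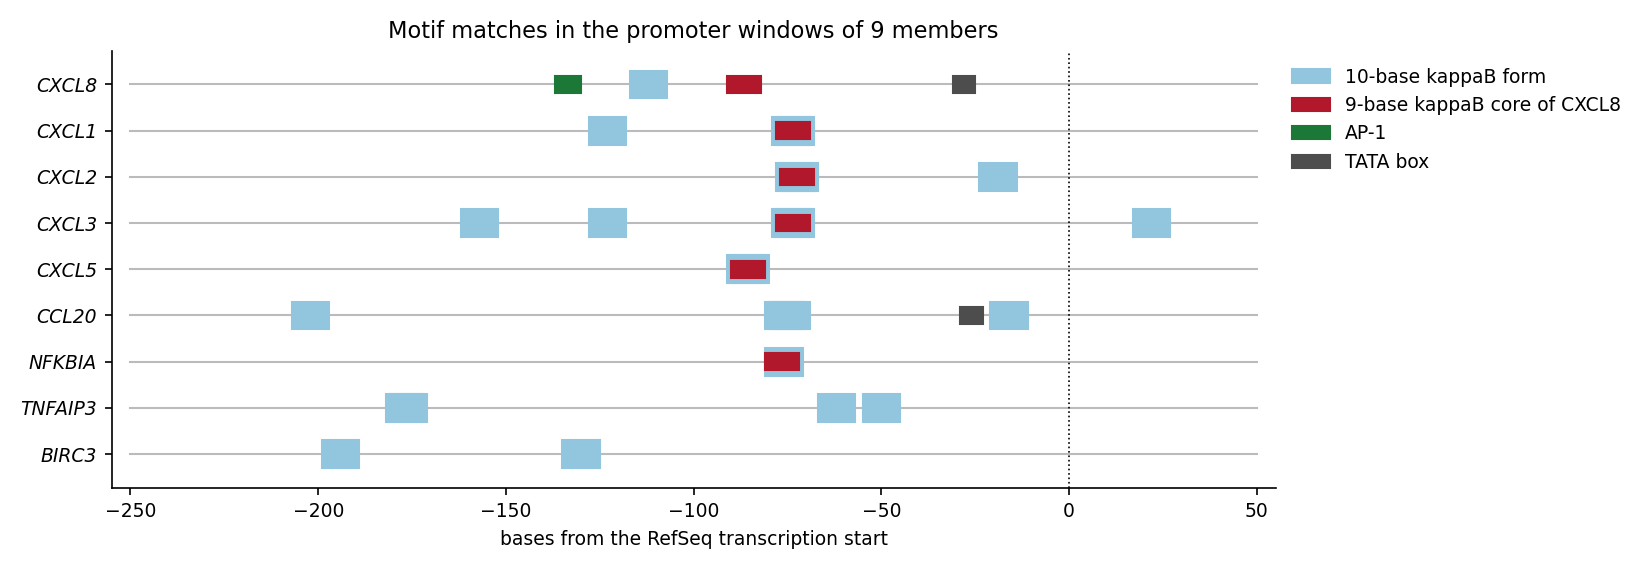
Positions of motif matches in the promoter windows of 9 members, in bases from the RefSeq transcription start, with boxes for the kappaB form GGGNNNNNCC, the core GGAATTTCC, AP-1 (TGANTCA) and TATAAA. The core begins at positions -91 to -77 in 6 members, and CXCL8 is the member that also holds AP-1.

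CXCL1, CXCL2 and CXCL3 lie in 1 chemokine cluster on chromosome 4 and have promoter stretches that are alike. Over 120 bases set against each other without gaps, CXCL1 and CXCL3 were identical at 90.8% of positions, CXCL1 and CXCL2 at 67.5% and CXCL2 and CXCL3 at 63.3%. Every pair with CXCL5 or CXCL8 was between 30.0% and 39.2%. Their transcripts are alike in part too, since 5.33% of the 50-base windows of CXCL1, 10.1% of those of CXCL2 and 5.26% of those of CXCL3 occur in another of these genes. No 150-base window did in any member. How reads shared between genes were counted is not given in the sources used here.

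With Gln added, the members ranged from no detected fragments to levels above those of most genes. NFKBIA, at 63.4 ± 0.910 FPKM (SD, n = 3), and CCL20, at 59.5 ± 4.15 FPKM, had higher means than 95.9% and 95.6% of the genes of the table. TNFAIP3 followed at 5.83 ± 0.201 FPKM, then RELB at 2.49 ± 0.231 and CXCL8 at 2.03 ± 0.461. BIRC3 was at 0.361 ± 0.0551 FPKM, and CXCL2, CXCL3 and CXCL5 had means of 0.135, 0.0609 and 0.0502 FPKM. CXCL1 was listed at 0 in all 3 libraries. In this order NFKBIA overlapped with CCL20, RELB with CXCL8, CXCL2, CXCL3 and CXCL5 with one another, and CXCL3 with CXCL1, while the other neighbours were apart in every library.

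By 24 h the order of the levels had changed at the top. CCL20 (171 ± 4.14 FPKM) was above NFKBIA (62.6 ± 1.61 FPKM) in every library, as it was at 12 h, and TNFAIP3, RELB and CXCL8 followed at means of 9.56, 8.36 and 5.35 FPKM with no overlap between these 3 genes. CXCL2 (0.610 FPKM) was just above BIRC3 (0.453 FPKM) at 24 h, whereas their ranges overlapped at 12 h. CXCL5 and CXCL1 overlapped at the low end at 24 h, as did CXCL1 and CXCL3.

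**Figure D2:**
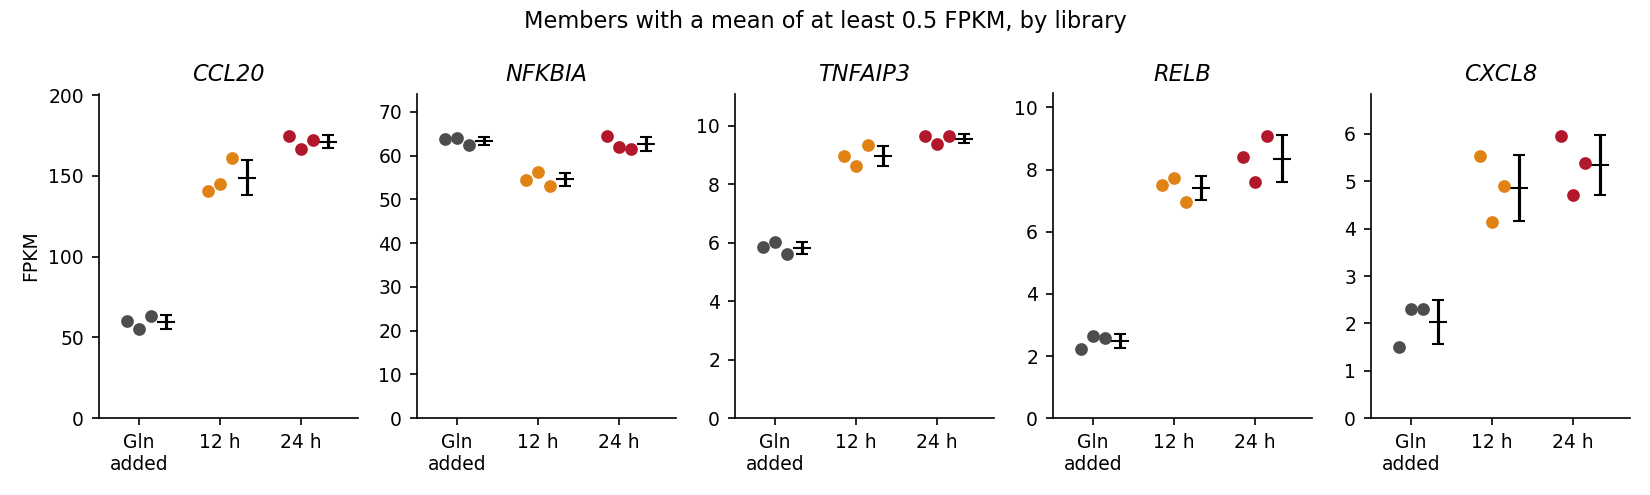
FPKM by library of the 5 members that averaged 0.5 FPKM or more, with each axis starting at 0 and points for the 3 libraries of each group beside a bar for mean ± SD. CCL20, TNFAIP3, RELB and CXCL8 were higher in every Gln-deprived library than in every Gln added library, and NFKBIA was lower at 12 h.

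The first comparison asked how the members changed after 12 h of Gln deprivation. The chemokine genes CCL20 and CXCL8, the NF-kappaB subunit gene RELB and the inhibitor gene TNFAIP3 rose, and the inhibitor gene NFKBIA fell. RELB had the largest rise among the members tested, to 2.97 times its mean FPKM with Gln added, followed by CCL20 at 2.50 times, CXCL8 at 2.40 times and TNFAIP3 at 1.54 times. Thus 5 of the 5 members tested had an adjusted p under 0.05 from limma (on log2(FPKM + 0.1), Benjamini-Hochberg over 11880 genes), 4 higher and 1 lower. This has to be read against a wide response, since 60.2% of all genes tested were called at 12 h, 29.1% higher and 31.0% lower. Rises over 1 on the log2 scale were less common, at 2.00% of genes (238), and 3 of the 5 members had one. Ranked from the largest rise down, RELB was number 74 of 11880 genes, CCL20 number 114, CXCL8 number 147, TNFAIP3 number 770 and NFKBIA number 8369. The members were chosen with earlier results of these data known. These shares and ranks therefore describe the members and do not test whether they stand out from other genes.

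After 24 h of Gln deprivation the same 4 genes were above the Gln added level and NFKBIA was back near it. The mean FPKM of RELB was 3.35 times that with Gln added, that of CCL20 2.88 times, that of CXCL8 2.64 times and that of TNFAIP3 1.64 times. Of the 5 members tested, 4 were called higher and 0 lower by limma, where 64.7% of all genes were called, 33.0% higher and 31.7% lower. The rise was over 1 on the log2 scale in 3 members and in 3.21% of genes (381). RELB ranked number 76, CCL20 number 115, CXCL8 number 160, TNFAIP3 number 822 and NFKBIA number 6277. As at 12 h, the shares and ranks are descriptions of chosen genes and not a test. Both comparisons use the same 3 Gln added libraries, so they are not independent of each other.

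**Figure D3:**
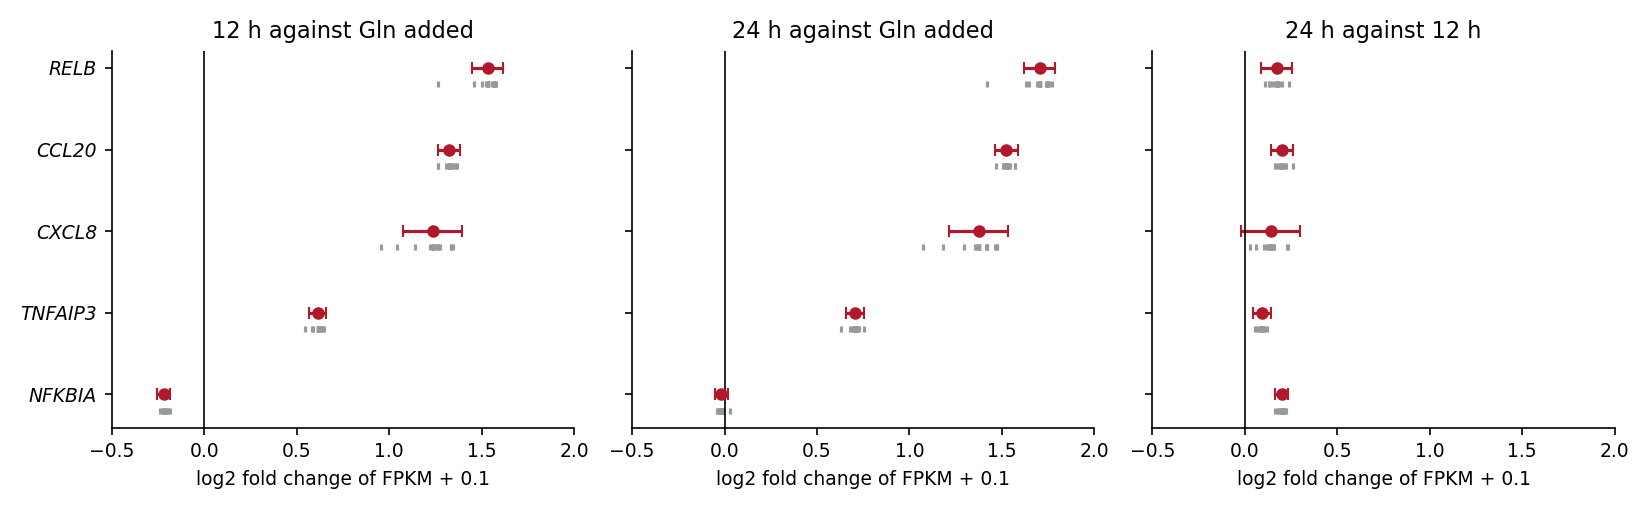
Log2 fold changes of FPKM + 0.1 for the 5 members tested, with bars for ± SE from limma and grey ticks for the value under each of 19 alternatives. At 12 h and 24 h RELB, CCL20, CXCL8 and TNFAIP3 lie above 0 under every alternative, and NFKBIA lies below 0 at 12 h and near 0 at 24 h.

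CCL20 had the highest level per length of the 6 member chemokines in every library. It encodes the ligand of CCR6 and lies on chromosome 2 from 227805739 to 227817564 (GRCh38, GENCODE v44, plus strand). Its FPKM were 60.3, 55.1 and 63.3 with Gln added, 141, 145 and 161 at 12 h, and 175, 167 and 172 at 24 h. The 3 groups did not overlap, and the lowest 12 h library was above the highest Gln added library by more than the range of either group. Its log2 fold change was 1.32 after 12 h, with SE 0.060 and a limma adjusted p = 2.83e-08, and 1.52 after 24 h, with a limma adjusted p = 6.19e-09. These values rest on 1605 to 5221 fragments per library. The 6 chemokine ligands together summed to 57.5 to 65.9 FPKM with Gln added, 147 to 167 after 12 h and 172 to 182 after 24 h. CCL20 made up 95.8% to 97.2% of that sum with Gln added and 96.1% to 96.9% at 24 h.

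CXCL8, which encodes the neutrophil attractant interleukin-8, lies on chromosome 4 from 73740519 to 73743716 on the plus strand. Its FPKM were 1.50, 2.29 and 2.30 with Gln added, 5.53, 4.14 and 4.91 at 12 h, and 5.96, 4.70 and 5.38 at 24 h. Every deprived library was above every Gln added library, while the 12 h and 24 h libraries overlapped. Its log2 fold change was 1.24 after 12 h, with SE 0.16 and a limma adjusted p = 7.30e-05, and 1.37 after 24 h, with a limma adjusted p = 2.58e-05. It had the largest SE of the 5 members tested, on 110 to 439 fragments per library. Per length, CCL20 stood 24.0 to 40.3 times as high as CXCL8 with Gln added and 29.3 to 35.4 times as high at 24 h, and these ranges overlap.

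The 4 remaining CXC ligands, which like CXCL8 signal through CXCR2 on neutrophils, were at or near the floor of detection. CXCL2 (chromosome 4, 74097040 to 74099196, minus strand) had 5, 2 and 9 fragments with Gln added, 11, 19 and 12 at 12 h, and 30, 19 and 22 at 24 h. The groups did not overlap between Gln added and either time, and the 19 fragments of a 12 h and a 24 h library came from libraries of different depth. Its mean FPKM rose from 0.135 to 0.367 at 12 h and 0.610 at 24 h. In a fit of all 22587 genes without the filter, the log2 fold change of CXCL2 was 1.05 at 12 h (adjusted p = 0.0240 from limma) and 1.65 at 24 h (adjusted p = 0.00197 from limma). By limma's voom on the recovered fragments without the filter, added after the data were seen, these values were 1.54 (adjusted p = 0.0213) and 2.26 (adjusted p = 0.000804). The fit on FPKM called 15.0% of genes higher at 12 h and 18.2% at 24 h.

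CXCL1 (chromosome 4, 73869393 to 73871308, plus strand) had 0 fragments in all 3 Gln added libraries, 0, 2 and 2 at 12 h, and 6, 1 and 3 at 24 h. Each 24 h library held at least 1 fragment and no Gln added library did. Over the group, 0 fragments of 106205178 with Gln added allow up to 3 by counting error. Scaled to depth, the 10 fragments at 24 h were 3.41 times that floor. This takes the 10 as exact, so it is not a lower bound for the difference. Without the filter CXCL1 was called at 24 h (adjusted p = 0.0268 from limma) and not at 12 h (adjusted p = 0.302).

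CXCL3 (chromosome 4, 74036589 to 74038807, minus strand) had 4, 0 and 3 fragments with Gln added, 0 in all 3 libraries at 12 h, and 2, 1 and 1 at 24 h. The Gln added libraries overlapped with both deprived groups, and CXCL3 was not called at either time without the filter (adjusted p = 0.0761 at 12 h and 0.601 at 24 h from limma). A fit of the recovered fragments by limma's voom, added after the data were seen, called it lower at 12 h (adjusted p = 0.0457), on 7 fragments against 0. CXCL5 (chromosome 4, 73995642 to 73998677, minus strand) had 3, 4 and 6 fragments with Gln added, 10, 5 and 4 at 12 h, and 9, 8 and 7 at 24 h. It was not called at either time without the filter (adjusted p = 0.417 and 0.161 from limma), and exons on the opposite strand cover 17.3% of its exonic bases. CXCL1 and CXCL3, whose promoter stretches above are the most alike, had no more than 6 fragments in any library, and the difference between them was not tested.

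**Figure D4:**
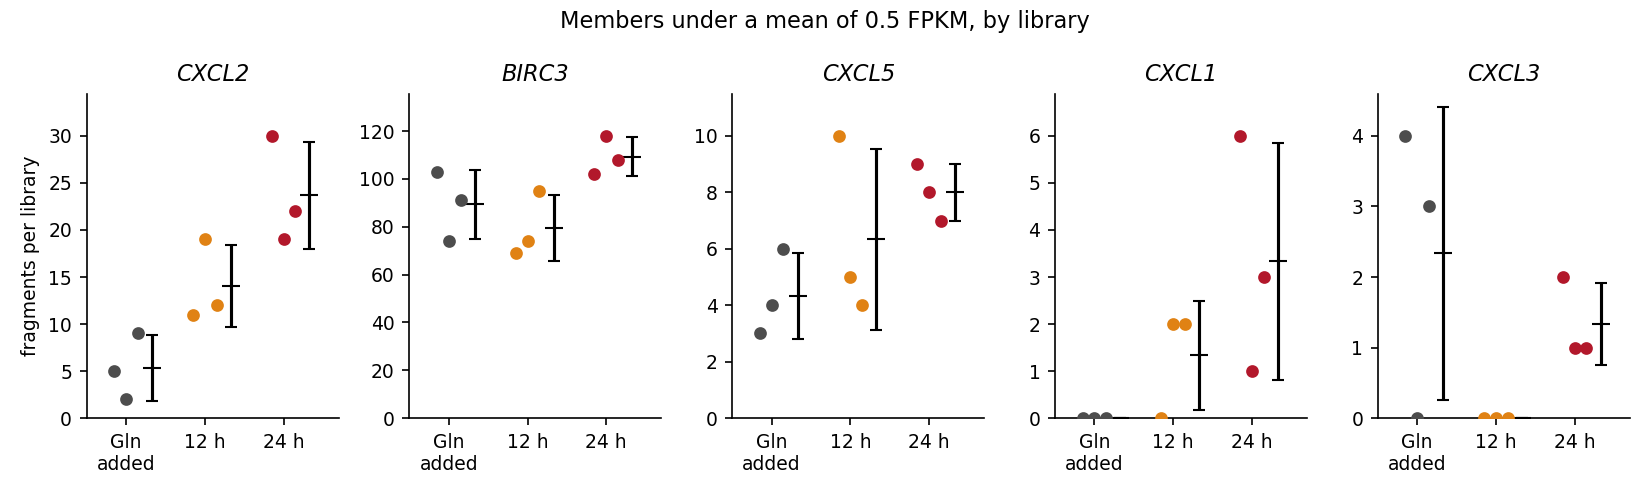
Recovered fragments per library, not scaled to depth, of the 5 members with a mean under 0.5 FPKM, with points for libraries and a bar for mean ± SD in each group. CXCL2 climbs from 2 to 9 fragments with Gln added to 19 to 30 at 24 h, while CXCL1, CXCL3 and CXCL5 stay at or under 10.

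NFKBIA encodes IkappaBalpha, the inhibitor that NF-kappaB resupplies first after it is activated. It lies on chromosome 14 from 35401079 to 35404749 on the minus strand. Its FPKM were 63.9, 64.0 and 62.4 with Gln added, 54.3, 56.2 and 53.1 at 12 h, and 64.5, 61.9 and 61.6 at 24 h. All 12 h libraries were below all others, and the range of the 24 h libraries took in that of the Gln added libraries. Its log2 fold change was -0.22 after 12 h, with SE 0.035 and a limma adjusted p = 0.000316, and -0.02 after 24 h, with a limma adjusted p = 0.671. At 24 h the direction depended on the scaling, at 0.03 with FPKM rescaled to the same total, and was called under neither. NFKBIA was the only member tested that fell at 12 h, and it shares the kappaB core printed above with CXCL8, which rose. Any part of the core in either change was not tested. The fall of NFKBIA was smaller than the median absolute log2 fold change of all genes called at 12 h, 0.39. The summed immune markers given above were lowest at 12 h as well. Without LYZ and CD68 that sum was 2.48 to 2.76 FPKM at 12 h, at least 3.41 FPKM with Gln added and 2.49 to 3.84 FPKM at 24 h, and its part in the change of NFKBIA was not tested.

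TNFAIP3 encodes a ubiquitin-editing enzyme that shuts off signalling to IKK from the TNF receptor and Toll-like receptors. The gene is on chromosome 6 from 137867214 to 137883314, plus strand, and exons of WAKMAR2 on the opposite strand cover 1.47% of its exonic bases. FPKM were 5.85, 6.02 and 5.62 with Gln added, 8.96, 8.63 and 9.33 at 12 h, and 9.64, 9.39 and 9.65 at 24 h. The 24 h libraries lay in a narrow band above all 12 h libraries, and those lay above all Gln added libraries. Its log2 fold change was 0.61 after 12 h, with SE 0.048 and a limma adjusted p = 1.62e-06, and 0.70 after 24 h, with a limma adjusted p = 3.82e-07. The feedback genes thus differed among themselves, with the ratio of TNFAIP3 to NFKBIA in FPKM at 0.0901 to 0.0940 with Gln added, 0.154 to 0.176 after 12 h and 0.149 to 0.157 after 24 h.

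RELB, an NF-kappaB subunit that acts mainly in the slower noncanonical branch of the pathway and is itself an NF-kappaB target, lies on chromosome 19 from 45001461 to 45038192 on the plus strand. Its FPKM were 2.23, 2.65 and 2.60 with Gln added, 7.49, 7.73 and 6.97 at 12 h, and 8.40, 7.59 and 9.09 at 24 h. No deprived library came near the Gln added range, and the 12 h and 24 h libraries overlapped. Its log2 fold change was 1.53 after 12 h, with SE 0.084 and a limma adjusted p = 1.13e-07, and 1.71 after 24 h, with a limma adjusted p = 3.27e-08, on 181 to 721 fragments per library. Relative to RELA, the main activating subunit, RELB stood at 0.0894 to 0.106 in FPKM with Gln added, 0.215 to 0.223 after 12 h and 0.212 to 0.284 after 24 h.

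BIRC3 encodes a ubiquitin ligase that blocks cell death and restrains the noncanonical branch. It lies on chromosome 11 from 102317484 to 102339403 on the plus strand, and had 103, 74 and 91 fragments with Gln added, 69, 74 and 95 at 12 h, and 102, 118 and 108 at 24 h. As FPKM the groups ran from 0.303 to 0.413, 0.292 to 0.377 and 0.408 to 0.508, and Gln added overlapped with both deprived groups. Without the filter BIRC3 was not called at 12 h (log2 fold change -0.08, adjusted p = 0.767 from limma) or at 24 h (0.27, adjusted p = 0.260 from limma). Exons on the opposite strand cover 1.68% of its exonic bases.

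For each of CCL20, CXCL8, RELB, TNFAIP3 and CXCL2, every deprived library was above every Gln added library at both times, which gives p = 0.1 in a two-sided exact permutation test, the smallest that 3 libraries against 3 allow. The same p came out for NFKBIA at 12 h, where all libraries were lower, and for CXCL1 and CXCL5 at 24 h. For NFKBIA at 24 h the exact permutation test gave p = 0.5, and for BIRC3 p = 0.6 at 12 h and p = 0.2 at 24 h.

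The third comparison set 24 h against 12 h of Gln deprivation, to see which members went on changing. CCL20 and NFKBIA were higher at 24 h and no member was lower. CCL20 was higher by 0.20 on the log2 scale (adjusted p = 0.0373 from limma) and NFKBIA by 0.20 (adjusted p = 0.00292 from limma). RELB (0.17, adjusted p = 0.181), CXCL8 (0.14, adjusted p = 0.592) and TNFAIP3 (0.09, adjusted p = 0.211) were not called by limma. Thus 2 of 5 members tested were called, where 20.1% of all genes were called, 9.57% higher and 10.5% lower. The call of CCL20 was lost with all genes in the fit, with median-ratio scaling, without a trend, and when replicate 1 with Gln added, replicate 1 or 2 at 12 h or any 1 of the 24 h libraries was left out, with adjusted p from 0.0501 to 0.130 in these cases. Of all genes called between the times, 47.7% were higher at 24 h with FPKM as deposited, 33.4% after scaling by median ratios and 54.3% when every library had the same FPKM total.

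The other genes of the pathway were taken from 7 lists, which were also chosen with earlier results of these data known. Among 15 genes of NF-kappaB subunits, IkappaB proteins and IKK, 14 were tested, and 9 rose and 1 fell at 12 h, with a median log2 fold change of 0.30 against -0.02 over all genes tested. At 24 h 10 rose and 0 fell, with a median of 0.35 against 0.01. Over all genes tested, 29.1% rose and 31.0% fell at 12 h and 33.0% rose and 31.7% fell at 24 h, which is the background for each list that follows. NFKB2, which codes for the partner of RELB, rose on the log2 scale by 0.91 after 12 h and by 1.16 after 24 h (SE 0.061, adjusted p = 5.60e-07 and 5.65e-08 from limma), from a mean of 8.10 to 15.3 and 18.2 FPKM. NFKB1 and RELA, the canonical pair, rose less, by 0.36 and 0.43 at 12 h and by 0.30 and 0.43 at 24 h. NFKB2 stood at 0.530 to 0.542 of the level of NFKB1 in FPKM with Gln added, 0.763 to 0.808 after 12 h and 0.903 to 1.04 after 24 h, with no overlap between the groups. IKBKG, the regulatory subunit of IKK, rose by 1.16 and 0.89, but it has a near-identical pseudogene copy and its level is uncertain.

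The genes that carry signals to NF-kappaB rose and fell in shares near those of all genes. Of 28 genes of TNF, IL-1 and Toll-like receptor signalling, 19 were tested, and 5 rose and 7 fell at 12 h (median log2 fold change -0.12) and 5 rose and 6 fell at 24 h (median 0.03), where 29.1% of all genes rose and 31.0% fell at 12 h and 33.0% rose and 31.7% fell at 24 h. With FPKM rescaled to the same total, 6 rose and 5 fell at 12 h and 6 rose and 4 fell at 24 h. IRAK2, a kinase-like adaptor of IL-1 and Toll-like receptors, rose by 1.06 at 12 h and 1.38 at 24 h (SE 0.046, adjusted p = 2.05e-08 and 2.05e-09 from limma). TNFRSF1A, the main TNF receptor, rose from 37.5 to 54.6 and 55.8 FPKM (log2 fold change 0.54 and 0.57), and IRAK1 was not called at either time, except at 24 h with the same total (log2 fold change 0.12, adjusted p = 0.0442 from limma). The ligands themselves were hardly detected, with TNF, IL1A and IL1B at 2 fragments or fewer in every library.

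Of 19 other feedback and survival targets, 16 were tested, and 8 rose and 3 fell at 12 h (median 0.13) and 11 rose and 1 fell at 24 h (median 0.35), against all-gene medians of -0.02 and 0.01 and shares of 29.1% and 33.0% that rose. Under either other scaling 1 fell at 12 h in place of 3. IER3, an early response gene induced by NF-kappaB and by stress, had a larger log2 fold change than the 5 members tested, from 35.9 to 149 and 163 FPKM (log2 fold change 2.05 and 2.18, SE 0.046, adjusted p = 1.73e-10 and 1.21e-10 from limma). Exons on the opposite strand cover 38.9% of its exonic bases, and whether strand was used in counting is not given in the sources used here. BCL2L1, the gene of the survival protein BCL-XL, rose by 0.69 and 0.73 on the log2 scale, with the same kind of overlap over 41.3% of its exonic bases. TAX1BP1, an adaptor that works with the product of TNFAIP3, rose by 0.44 and 0.37.

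Of 28 other inflammatory targets, 24 had a row and 9 were tested, and 3 rose and 1 fell at 12 h (median 0.17) and 6 rose and 2 fell at 24 h (median 0.33), where 29.1% of all genes rose at 12 h and 33.0% at 24 h. With FPKM rescaled to the same total 5 rose at 12 h. ICAM1, which leukocytes grip to leave the blood, rose from 31.6 to 51.2 and 82.4 FPKM (log2 fold change 0.70 and 1.38, SE 0.048, adjusted p = 6.63e-07 and 2.78e-09 from limma), with exons on the opposite strand over 25.4% of its exonic bases. CSF1, the macrophage growth factor, rose by 0.59 and 1.29 (SE 0.075). TNFSF10, a death ligand, fell by 1.08 after 12 h and by 0.94 after 24 h on the log2 scale, and IL32, at 82.1 FPKM with Gln added, was not called at 12 h and fell by 0.12 at 24 h, a call that was lost with FPKM rescaled to the same total (adjusted p = 0.0904 from limma). C3, a complement gene, rose by 0.17 and 0.37.

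The other chemokine ligands were mostly silent. Of 35 genes, 20 had a row and 4 were tested, and 1 rose and 1 fell at 12 h (median 0.08) and 3 rose and 0 fell at 24 h (median 0.34). CXCL16, a ligand made as a membrane protein, rose by 0.45 and 0.74 (SE 0.042), from 24.8 to 34.1 and 41.5 FPKM. CX3CL1, also made at the membrane, fell by 0.33 at 12 h and was near its Gln added level at 24 h (log2 fold change 0.10, adjusted p = 0.0665 from limma), though it was called higher at 24 h with the same total (0.14, adjusted p = 0.0122 from limma). CCL2 and CCL5, common partners of CXCL8 in inflamed tissue, had 2 fragments or fewer in every library. Both, and TNF, IL1A, IL1B, CXCR1 and CXCR2, fall outside the rule for named genes and were singled out after their values were seen.

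Receptors for the member chemokines were few. CXCR1 and CXCR2, the receptors of the CXC ligands, had at most 1 and 2 fragments in a library. CCR6, the receptor of CCL20, was the only 1 of 5 receptor genes that was tested, at 4.53 FPKM with Gln added, 4.27 after 12 h and 5.18 after 24 h, and it was not called at either time (adjusted p = 0.427 and 0.0904 from limma). Another same-strand gene shares 85.2% of the exonic bases of CCR6, so its level is uncertain.

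The acute phase genes, which liver cells switch on under IL-6 and IL-1, fell more often than they rose. Of 14 genes, 12 had a row and 9 were tested, and 2 rose and 6 fell at 12 h (median -0.48) and 1 rose and 5 fell at 24 h (median -0.36), where 31.0% and 31.7% of all genes fell. With FPKM rescaled to the same total 3 rose and 5 fell at 24 h. HP, the haptoglobin gene, which has a close copy in HPR and is uncertain for that reason, fell by 1.39 at 12 h and by 1.31 at 24 h, and HAMP, the gene of the iron hormone hepcidin, fell by 0.78 and by 1.64 on the log2 scale (SE 0.063). The fibrinogen genes FGA and FGG fell by 0.48 and by 0.51 at 12 h and by 0.36 and by 0.45 at 24 h. SERPINA3, a protease inhibitor, rose by 0.98 at 12 h and 1.91 at 24 h (SE 0.044, adjusted p = 2.67e-08 and 1.86e-10 from limma), and another same-strand gene shares 31.7% of its exonic bases.

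**Figure D5:**
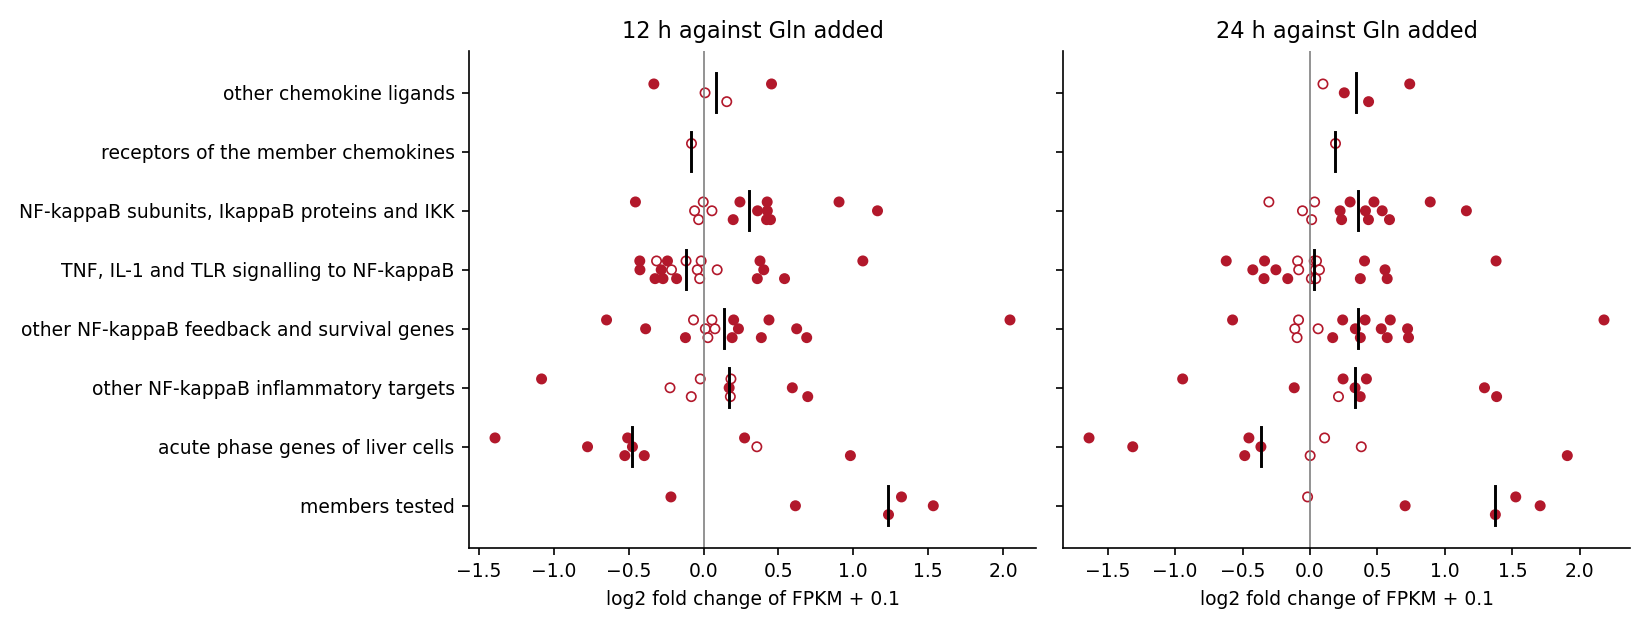
Log2 fold changes of FPKM + 0.1 at 12 h and 24 h against Gln added for the tested genes of 7 lists and for the 5 members tested, with filled points for an adjusted p under 0.05 from limma, open points for the rest and a black bar at the median of each list. The medians of the NF-kappaB subunit list are 0.30 and 0.35 and those of the acute phase list -0.48 and -0.36.

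Markers of endothelial cells and of fibroblasts were low. Endothelial markers summed to 0.124 to 0.366 FPKM over all libraries. Fibroblast and stellate cell markers summed to 0.113 to 0.181 FPKM with Gln added, 0.317 to 0.518 after 12 h and 0.608 to 0.780 after 24 h, nearly all of it PDGFRB, with COL1A1, COL1A2, COL3A1 and DCN at or under 0.0171 FPKM. This sum moved in the same order as the group means of CCL20 and RELB, though RELB overlapped between 12 h and 24 h. The part of this sum in their change was not tested.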

How the data were processed

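RNA-seq of 9 HepG2 libraries was used, 3 each with Gln added, after 12 h and after 24 h of Gln deprivation. According to the methods, the authors aligned paired reads to GRCh38 with STAR and tested counts with DESeq2; the submitters' processing notes name HTSeq and R 3.2.0. The methods and the labels name different library kits, and only the former describe stranded libraries. The authors deposited FPKM per gene, with no further scaling stated. Whole fragments and library totals were solved from the FPKM steps (100% of genes within 0.001 of a whole number).

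Because FPKM are not counts, limma 3.58.1 (R 4.3.3; lmFit, eBayes with a trend) was run on log2(FPKM + 0.1) for genes averaging 0.5 FPKM or more, all 3 groups together, with Benjamini-Hochberg adjustment over all genes tested and calls at an adjusted p under 0.05. This scale understates changes of genes near 0.1 FPKM. The script was tested on simulated data. Single genes were compared by two-sided exact permutation tests.

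The 10 members and 7 gene lists were chosen with earlier results of these data known. Named list genes are those called at 12 h or 24 h with an absolute log2 fold change over 1, plus up to 2 per list with the highest mean FPKM, and 7 low genes named outside this rule after their values were seen. Positions and exon overlaps come from GENCODE v44, promoters from RefSeq (GRCh38.p14). RELB has no entry in the promoter table. Alternatives were other pseudocounts (1 and 0.01), other filters (none, or a mean of 1 FPKM), rescaling to the same total or by median ratios, only the groups compared, the replicate number as a block, no trend, each library left out and voom on recovered fragments. Plots used matplotlib 3.10.9 (Python 3.11.15).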

Additional observations from a re-analysis of the deposited data

Results flagged for a closer look

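Some genes had effects of Gln deprivation that differed between 12 h and 24 h, by the limma contrast of the groups (adjusted p in parentheses, over 11880 genes); values are the log2 effect at 24 h minus that at 12 h. Among the members these were CCL20, by 0.20 (adjusted p = 0.0373), and NFKBIA, by 0.20 (adjusted p = 0.00292). The call of CCL20 was lost under several alternatives, given below. NFKBIA was lower than with Gln added in 3 of 3 libraries at 12 h and not called at 24 h.

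Among the genes of the lists that the rule names, the level was higher at 24 h than at 12 h for CXCL16, by 0.28 (adjusted p = 0.00108), CX3CL1, by 0.43 (adjusted p = 8.19e-05), NFKB2, by 0.25 (adjusted p = 0.0154), IRAK2, by 0.31 (adjusted p = 0.000989), CSF1, by 0.70 (adjusted p = 0.00014), ICAM1, by 0.69 (adjusted p = 1e-05), C3, by 0.20 (adjusted p = 0.0032), SERPINA3, by 0.93 (adjusted p = 1.3e-06), and FGA, by 0.11 (adjusted p = 0.0229). It was lower at 24 h than at 12 h for IKBKG, at -0.27 (adjusted p = 0.0441), and HAMP, at -0.86 (adjusted p = 1.36e-05). These signed differences are not sizes of the response: FGA and HAMP were below Gln added at both times, FGA by less and HAMP by more at 24 h. All come from limma. With median-ratio scaling FGA was not called (0.07, adjusted p = 0.118). Of all genes tested, 20.1% were called between the times.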

How the results depend on the processing

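Of 300 fold changes recomputed under an alternative, 289 kept their direction and their side of the threshold. For several alternatives, such as another filter, no trend or the replicate block, the fold change itself cannot differ and only its adjusted p can. A kept direction is no test in those cases. Of 120 counts of calls, 108 stayed within 1.5 times the reported count. At 12 h 5 or 6 members and at 24 h 4 or 6 members were called against Gln added under every alternative, 6 being the number without the filter, which adds CXCL2 at 12 h and CXCL1 and CXCL2 at 24 h. RELB, CCL20, CXCL8 and TNFAIP3 stayed higher at both times under all of them. Between 24 h and 12 h, 1 member was called in place of 2 without the filter, with median-ratio scaling and without a trend, and 1 to 2 with a library left out. Each of these is the loss of CCL20 (adjusted p from limma = 0.0941, 0.0695 and 0.0744, and 0.0501 to 0.130 without replicate 1 with Gln added, replicates 1 or 2 at 12 h, or any 24 h library, with log2 values of 0.16 to 0.22); beyond fewer libraries or more genes tested, the cause was not tested. NFKBIA at 24 h turned from -0.018 to 0.029 with the same total and was called in neither. Of the acute phase list, 3 genes were called between the times without the filter in place of 5, and of the receptor list 1 in place of 0 at 24 h against either group with the same total, which was added after the data were seen. CXCL3 at 12 h was called by voom without the filter (log2 fold change -1.93, adjusted p = 0.0457) and not by limma on FPKM.

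Whether the replicate numbers pair the libraries cannot be settled from the values that follow. Same-numbered libraries correlated at -0.0329 to 0.0209 between Gln added and 12 h, -0.0309 to 0.0622 between Gln added and 24 h and -0.136 to 0.283 between the times, and 6 of 18 choices correlated best with their own number. With the number as a replicate block, 7341, 7802 and 2586 genes were called in the 3 comparisons against 7147, 7686 and 2386 without it, and 5, 4 and 2 members as before. Depth limits CXCL1, CXCL2, CXCL3 and CXCL5, which rest on 0 to 30 fragments per library.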
